A study of Arabidopsis thaliana with 12 samples.

Results

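Transcript levels of 5 Arabidopsis genes of calcium, kinase and phosphatase signalling are described here: the calmodulin-like genes CML38 (AT1G76650) and CML39 (AT1G76640), the EF-hand gene AT1G21550, the kinase family gene AT1G21590 and AT4G32950, a gene of the protein phosphatase 2C (PP2C) family. Each had 1 probe set annotated to it alone, so 5 of the 22746 probe sets on the array (controls left out) were followed. The genes were picked from results of these same arrays, largely by their change after the transfer to nitrate. That change is therefore given as a description, without a test, and only comparisons between genotypes are tested for these genes.

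Roots of 10-day-old plants of the Columbia ecotype were measured on one-colour Affymetrix ATH1 arrays, 12 in all. Wild-type plants and the mutant chl1-5, which is affected in the nitrate transporter and sensor CHL1 (NRT1.1), were each sampled at 2 points. All plants had grown on 12.5 mM ammonium succinate at pH 6.5 with 0.5% sucrose and without nitrate, and had then been held for 3 h in that medium at pH 5.5 and washed. The T0 roots were harvested at that point, and the T0.5 roots after 0.5 h in medium at pH 5.5 holding 25 mM KNO3 in place of the ammonium salt. The 4 groups (wild type T0, wild type T0.5, chl1-5 T0, chl1-5 T0.5) had 3 arrays each, and every array held RNA from pooled seedlings of 9 vessels, about 900 seedlings for each replicate. The genotypes shared vessels, growing in separate areas of 1 mesh, and the replicate numbers 1, 2 and 3 stand for independent experiments. A change from T0 to T0.5 thus combines added nitrate, lost ammonium succinate and the transfer itself, and these cannot be told apart here.

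Calcium ions act as a short-lived signal in plant cells. EF-hand proteins such as the calmodulin-like family bind them and pass the signal on. Protein kinases add phosphate groups to target proteins, and PP2C phosphatases remove them. In roots nitrate is known to raise cytosolic calcium within seconds, in part through CHL1, and calcium-dependent kinases then modify regulators of nitrate-responsive genes. CML38 is known as a gene induced by wounding and by low oxygen, and CML39 for its role in seedling establishment.

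The values are MAS5 signals, which the authors scaled to the same trimmed mean on every array. Signals below were put on the log2 scale for differences. Dim denotes a probe set that lay below the 40th percentile of every array of a group. Array medians lay between 175.9 and 195.35, and of the controls for RNA quality GAPDH had 3'/5' ratios between 0.860 and 1.38, ubiquitin between 1.68 and 2.24 and actin between 9.72 and 18.4. The actin transcript thus gave far more signal at its 3' end on every array. As a check of the labelled tissue, 1 of the 12 listed root markers had a named probe set, EXPA7 of root hair cells. Its group means were 1299 and 1295 at T0 and 757 and 791 at T0.5 (wild type and chl1-5). EXPA7 fell by 0.79 in wild type (SE 0.17, adjusted p = 0.0172) and by 0.73 in chl1-5 (SE 0.17, adjusted p = 0.0334) on the log2 scale, in all 6 pairs of arrays. Leaving out single arrays took the adjusted p to 0.0830 in wild type and 0.135 in chl1-5 at most, and it was above 0.05 in both without replicate number 2 (0.254 and 0.344) or 3 (0.130 and 0.282). The part of this fall in the lower signals of members at T0.5 was not tested. Of the 8 listed green-tissue markers only RCA had one, and its group means were 609 to 637, so a green-tissue transcript was measured in these roots as well. CHL1 itself had no named probe set and was not analysed here. In bulk roots, fewer cells of a type and less RNA per cell cannot be told apart.

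CML38 was higher at T0.5 in both genotypes, but with very unequal size in the 3 experiments. In wild type its signal was 175.7, 220.2 and 139.1 at T0 in replicates 1, 2 and 3, and 324, 1160.2 and 1375.3 at T0.5. The chl1-5 arrays gave 202.1, 186.7 and 144.6 at T0, and 237.2, 1071.1 and 1582.4 at T0.5. The T0.5 arrays of replicates 2 and 3 stand far above all others in both genotypes, while those of replicate 1 lie just above the T0 range. The groups did not overlap in either genotype. All T0.5 arrays lay above all T0 arrays for 7.76% of the 14291 probe sets tested in wild type and for 7.72% in chl1-5.

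Taken within a replicate number, CML38 was 1.84-fold, 5.27-fold and 9.89-fold higher at T0.5 in wild type (replicates 1, 2 and 3). In chl1-5 the same ratios were 1.17, 5.74 and 10.9. The mean log2 change was 2.20 in wild type (limma SE 0.63, n = 3 arrays per group) and 2.07 in chl1-5 (SE 0.63). Without replicate number 1, the experiment that stood apart, it was 2.85 and 2.99, and the SE came down to 0.26. Leaving out other arrays or replicate numbers took the mean change as low as 1.64 in wild type and 1.38 in chl1-5.

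**Figure D1:**
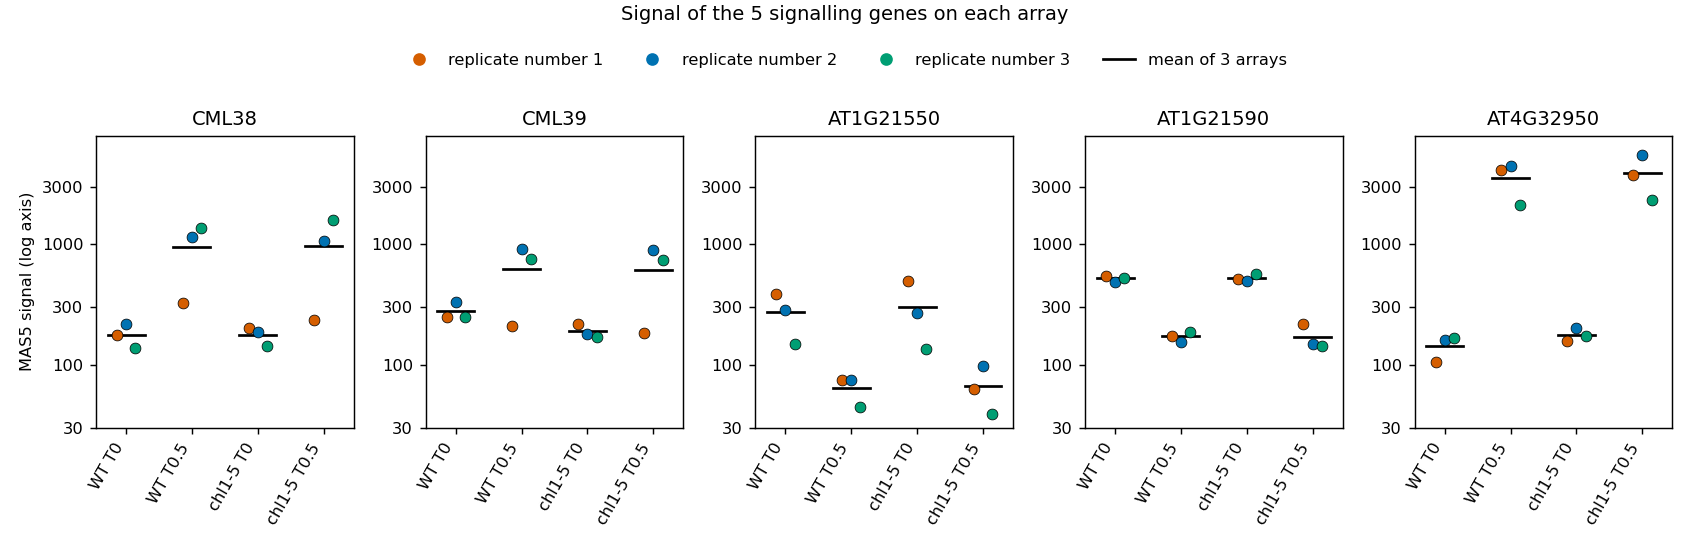
MAS5 signal (log axis) of the 5 genes in wild type (WT) and chl1-5 before nitrate (T0) and after 0.5 h (T0.5). Points are single arrays coloured by replicate number and bars are means of 3 arrays. For CML38 and CML39 the T0.5 points of replicate number 1 sit near the T0 points in both genotypes, whereas AT4G32950 has all T0.5 points at 2139.9 or above.

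CML39 is the annotated neighbour of CML38, with no annotated locus between them, and it differed between experiments in the same way. Its wild-type signal was 250.2, 334.3 and 249.4 at T0 (replicates 1 to 3) and 210.7, 914.2 and 750 at T0.5. The chl1-5 signals were 220.5, 179.7 and 170.7 at T0, and 184.8, 896.7 and 747.1 at T0.5. In replicate 1 the T0.5 signal was thus below the T0 signal in both genotypes, and the groups overlapped.

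Within replicate numbers the log2 change of CML39 was -0.25, 1.45 and 1.59 in wild type and -0.25, 2.32 and 2.13 in chl1-5. The mean was 0.93 in wild type (SE 0.58) and 1.40 in chl1-5 (SE 0.58). Leaving out replicate number 1, the experiment that stood apart, moved these to 1.52 and 2.22, with an SE of 0.19. Other omissions of arrays or replicate numbers took them as low as 0.53 in wild type and 0.94 in chl1-5. The pair of genes followed each other over the 12 arrays (r = 0.93), and their deviations from the group means did so as well (r = 0.95). Arrays with the same replicate number share an experiment, so these 12 points are not independent. The loci on either side of the pair stood closer to 0. AT1G76630, next to CML39, stood at -0.22 in wild type and -0.18 in chl1-5 (SE 0.24), and AT1G76660, next to CML38, at -0.14 in both (SE 0.12). AT1G76700, with 5 annotated loci between it and CML38, stood at 0.45 in wild type (SE 0.25, adjusted p = 0.363) and 0.63 in chl1-5 (SE 0.25, adjusted p = 0.219). With the replicate number as a block it passed in chl1-5 (adjusted p = 0.0468), and with that block as random it did not (0.0768).

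The name CML39 is also listed as a synonym of CML37 (AT5G42380) in the gene table used. CML37, a relative known for its part in defence against herbivores, is therefore given beside it. Its signal was low, with T0 arrays between 34.9 and 135.5 and T0.5 arrays between 54.4 and 252.8. Its log2 change was -1.32, 1.46 and 2.21 in replicates 1 to 3 of wild type and -0.42, 1.09 and 2.65 in chl1-5, again negative in replicate 1 only. CML37 did not pass limma in wild type (log2 0.78, SE 0.63, adjusted p = 0.543) or chl1-5 (log2 1.11, SE 0.63, adjusted p = 0.407).

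AT1G21550 encodes a protein with calcium-binding EF-hands and was lower at T0.5 in all 6 pairs of arrays, as were 15.4% of the 14291 probe sets tested. In wild type its signal was 391.1, 285.7 and 148.4 at T0 (replicates 1 to 3), and 74.7, 74.3 and 44.4 at T0.5. In chl1-5 it was 498.2, 268.3 and 136.5 at T0, and 63.3, 97.9 and 39 at T0.5. The level before nitrate thus differed more than 2-fold between experiments, and replicate 1 was highest and replicate 3 lowest in both genotypes.

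The groups of AT1G21550 did not overlap, and the gene was dim at T0.5 in both genotypes, so its fold rests on weak signals there. All T0.5 arrays lay below all T0 arrays for 17.6% of probe sets tested in wild type and for 12.1% in chl1-5. The ratio of T0 over T0.5 was 5.24, 3.85 and 3.34 in wild type and 7.87, 2.74 and 3.50 in chl1-5. The mean log2 change was -2.02 in wild type and -2.08 in chl1-5 (SE 0.49), the 13th and the 6th lowest of the 14291 probe sets. Ranks this low follow largely from how the gene was picked. It also had enough signal to be tested through its T0 arrays alone, where it was higher. Other floors, scalings and filters gave a mean change of -2.11 to -1.78 over both genotypes.

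AT1G21590, of the protein kinase family, varied least of the 5 between arrays of each group (coefficient of variation 5.18% to 24.3%). In wild type its signal was 545, 492 and 527.5 at T0 and 174.8, 155.4 and 187.7 at T0.5. Roots of chl1-5 gave 520.3, 496.1 and 564.7 at T0, and 218.1, 148.2 and 144.8 at T0.5. The T0 and T0.5 arrays form separate ranges with no overlap. Within a genotype, such a fall without overlap was seen for 17.6% of probe sets tested in wild type and 12.1% in chl1-5. All T0 arrays of both genotypes lie within 492 to 564.7.

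The change of AT1G21590 was similar in every experiment of wild type, at -1.64, -1.66 and -1.49 on the log2 scale, and spread more in chl1-5, at -1.25, -1.74 and -1.96. The means were -1.60 in wild type and -1.65 in chl1-5 (SE 0.16). Its deviations from the group means ran against those of CML38 (r = -0.72 over 12 arrays) and CML39 (r = -0.73). Same-numbered arrays share an experiment, and CML38 and CML39 followed each other. Neither the 12 points nor these r values are therefore independent. On the chl1-5 T0.5 array of replicate 1 the kinase gene was at its highest among the T0.5 arrays, and both calmodulin-like genes were at their lowest.

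AT1G21550 and AT1G21590 lie near each other on chromosome 1, and 2 genes between them had a named probe set. AT1G21560 stood at -0.24 in wild type and -0.27 in chl1-5 (SE 0.17), and AT1G21580 at 0.09 and -0.02 (SE 0.13). None of the 4 values passed limma, with adjusted p-values from 0.469 to 0.953.

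AT4G32950, a PP2C gene, had the largest change of the 5. In wild type its signal was 105.8, 159.6 and 167.9 at T0 (replicates 1 to 3), and 4150.1, 4440.5 and 2139.9 at T0.5. The chl1-5 values were 157.5, 203.1 and 175.1 at T0, and 3766.3, 5531.2 and 2359.3 at T0.5. Every T0.5 array was above every T0 array. Within a genotype, such a rise without overlap was seen for 7.76% of probe sets tested in wild type and 7.72% in chl1-5. The signal was higher at T0.5 in all 6 pairs, as for 8.23% of probe sets tested. Replicate 3 gave the lowest T0.5 signal in both genotypes.

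Within replicate numbers AT4G32950 was 39.2-fold, 27.8-fold and 12.7-fold higher at T0.5 in wild type and 23.9-fold, 27.2-fold and 13.5-fold higher in chl1-5. The mean log2 change was 4.59 and 4.37 (SE 0.32), the 10th highest of 14291 in wild type and the 5th highest in chl1-5. Ranks this high follow largely from how the gene was picked. Of its T0 arrays only that of wild type in replicate 1 was under the 40th percentile. On one side of it GAMMA-VPE, the gene of a vacuolar processing enzyme, stood at 0.04 and -0.03 (SE 0.10). AT4G32960 on the other side stood at 0.36 and 0.23 (SE 0.14). It passed limma in wild type only with the replicate number as a block (adjusted p = 0.175 without it, 0.0451 with it and 0.0611 with it as random), a fit in which 11.8% of probe sets passed in wild type and 9.9% in chl1-5.

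**Figure D2:**
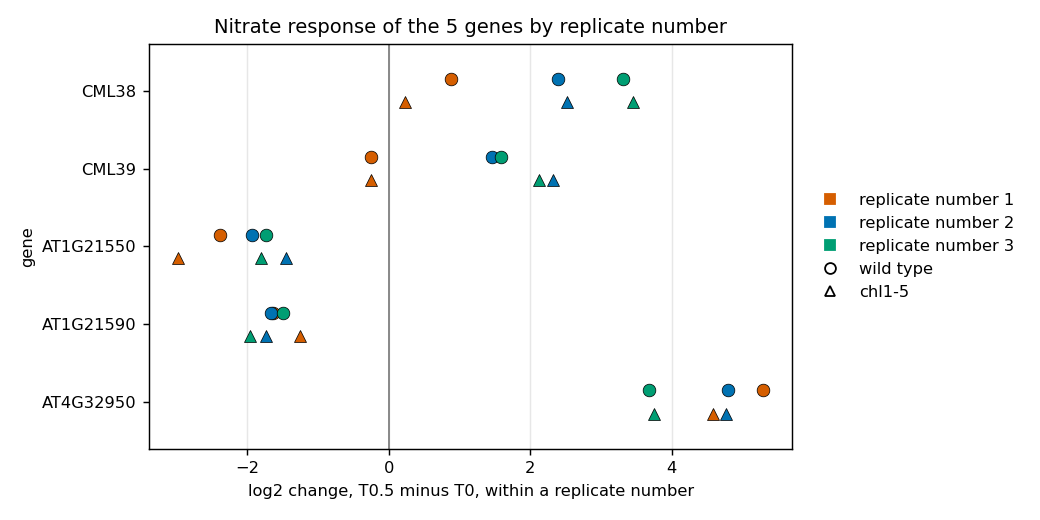
Log2 change from T0 to T0.5 of the 5 genes within each replicate number (colour) in wild type (circles) and chl1-5 (triangles). AT4G32950 lies at 3.67 or above and AT1G21550 and AT1G21590 at -1.25 or below in all 6 pairs, whereas the CML38 and CML39 points of replicate number 1 lie between -0.25 and 0.88.

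The dependence on the experiment separated the 5 genes. For each probe set the mean change of replicate numbers 2 and 3 over both genotypes was set against that of number 1. CML38 stood at 0.56 in number 1 and 2.92 in numbers 2 and 3, a difference of 2.36, and only 26 of the 14291 probe sets tested had a larger one. For CML39 the values were -0.25, 1.87 and 2.12, with 36 probe sets above it.

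The other members differed less between the experiments. AT1G21550 had a difference of 0.95, of the same sign as those of CML38 and CML39 and with 333 probe sets above it. It was lower at T0.5 in every experiment, by most in number 1 (-2.68, against -1.74 in numbers 2 and 3). AT4G32950 had -0.69, with 362 probe sets below it and the higher change in number 1 (4.94 against 4.25). AT1G21590 had -0.27, with 2860 probe sets below it. In 15 of 14291 probe sets (0.105%) the signal was at least 2-fold higher in the 4 pairs of numbers 2 and 3 and not higher in the 2 pairs of number 1. CML39 and CML37 were among these 15, and CML38 was not, since it was slightly higher in number 1. This description was chosen after the values were seen.

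**Figure D3:**
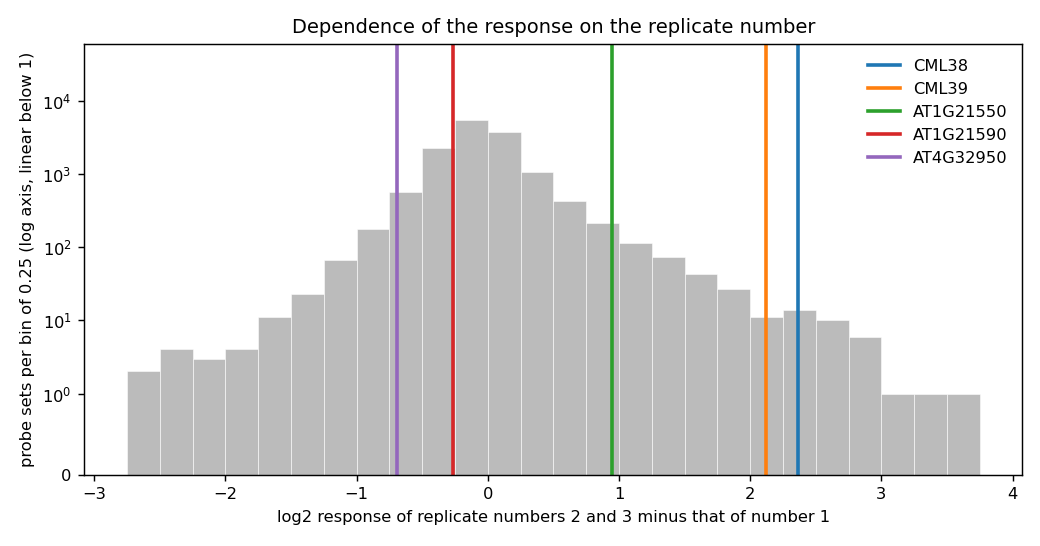
Number of tested probe sets (log axis, linear below 1) by the log2 response of replicate numbers 2 and 3 minus that of number 1, averaged over both genotypes, with the 5 genes as lines. CML38 (2.36) and CML39 (2.12) lie far in the right tail, AT1G21550 (0.95) nearer to 0, and AT1G21590 (-0.27) and AT4G32950 (-0.69) left of 0.

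Genes of touch and early stress were looked at beside this dependence. Of the 19 listed genes, none of them a member, 4 had a named probe set (CML37, ZAT10, WRKY53 and CML23). Their median log2 change in wild type was -0.67, 0.40 and 1.35 in replicates 1, 2 and 3. In chl1-5 it was -0.44, 0.33 and 1.67. ZAT10, a zinc finger repressor of stress responses, had -0.38, 0.49 and 1.36 in wild type and -0.46, 0.86 and 1.57 in chl1-5. WRKY53, a transcription factor of senescence and defence, had -0.95, 0.32 and 1.35 in wild type and -0.73, -0.28 and 1.77 in chl1-5. All 3 of these, CML37 included, thus had their lowest change in replicate 1 of both genotypes. CML23, a calmodulin-like gene of the same list, lay between -0.72 and -0.12 in all 6 pairs. None of the 4 passed limma in either genotype, and none had an unadjusted p under 0.05. Their part in the changes of CML38 and CML39 was not tested. The GAPDH 3'/5' ratios of replicate number 1 (0.860, 1.03, 0.971 and 1.23) included the lowest of the series, and their part was not tested either. The spread of all changes was narrower in number 1, with an SD of 0.47 in wild type and 0.42 in chl1-5, against 0.54 to 0.57 in the others.

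Other genes of calcium and phosphatase signalling could be followed for a small part of the loci listed. The nitrate response was called for 5.58% of all probe sets tested in wild type and for 3.86% in chl1-5, and so few listed genes were tested that their counts cannot be set apart from these shares. Of 57 other loci matched as EF-hand calcium sensors, 8 had a named probe set and all 8 were tested. One of these, AT4G35987, is a calmodulin methyltransferase and no sensor. CP1 (AT4G36880) was matched by a symbol that also names a cysteine proteinase, so it may be no sensor either. None of the 8 passed limma in wild type (2 with an unadjusted p under 0.05) or in chl1-5 (1). Their median change was 0.10 in wild type and 0.12 in chl1-5, against -0.09 and -0.06 over all probe sets tested.

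Among these sensors, CML43 stood at -0.67 in wild type (SE 0.30, adjusted p = 0.254) and -0.82 in chl1-5 (SE 0.30, adjusted p = 0.186). It was the 1 gene of the 8 to pass once the replicate number was a block, in both genotypes (adjusted p = 0.00608 and 0.00208). With the block as random it passed in chl1-5 (0.0314) and not in wild type (0.0627). CML42, known for its part in trichome branching, stood at 0.77 and 0.57 (SE 0.40, adjusted p = 0.321 and 0.531), with its largest changes in replicate 3 (1.53 and 1.66). CML41, a protein of plasmodesmata, stood at -0.56 and -0.40 (SE 0.20, adjusted p = 0.145 and 0.337), and was dim at T0.5 in chl1-5. CML30 and CP1 lay between 0.14 and 0.32 in both genotypes.

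Of 85 loci of calcium channels, pumps, exchangers and annexins, 9 had a named probe set and 3 passed the filter on dim signals. One of the 3 fell in both genotypes. ATGLR1.2, a glutamate receptor-like channel gene, fell by 1.46 in wild type (SE 0.25, adjusted p = 0.00388) and by 1.10 in chl1-5 (SE 0.25, adjusted p = 0.0293) on the log2 scale. Its signal went from 111.1 to 150.2 at T0 down to 33.1 to 63.6 at T0.5 in wild type, and from 124.7 to 158.2 down to 64.5 to 68.3 in chl1-5, and it was dim at T0.5. It thus passed the filter on dim signals through its T0 arrays alone, where it was higher, which favours a fall among the genes tested. The chl1-5 call was lost without any 1 of the 6 chl1-5 arrays (adjusted p from 0.0516 to 0.102). The wild-type call kept an adjusted p of 0.0250 or below without single arrays, and had 0.0594 without replicate number 1 and 0.0711 without number 2. ACA.l (AT1G13210) entered this list by its symbol alone and may be no calcium pump. It stood at 0.49 and 0.55 (SE 0.39, adjusted p = 0.535 and 0.537), with negative values in both pairs of replicate number 1. GLR3.3, a channel gene known from wound signalling, stood at -0.11 and 0.15 (SE 0.18).

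Of 32 loci matched as PP2C phosphatases, 2 had a named probe set besides AT4G32950, which the name patterns did not match. POL, a regulator of stem cells, stood at -0.48 in wild type (SE 0.16, adjusted p = 0.110, but 0.0305 once the replicate number was a block and 0.0365 with that block as random) and -0.33 in chl1-5 (SE 0.16, adjusted p = 0.323). PIA1, a phosphatase of defence responses, stood at -0.04 and -0.10 (SE 0.11). The 63 loci of calcium-dependent and CBL-interacting kinases, 12 of the nitrate and calcium relay and 13 of the core response to low oxygen had no named probe set and were not analysed here.

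**Figure D4:**
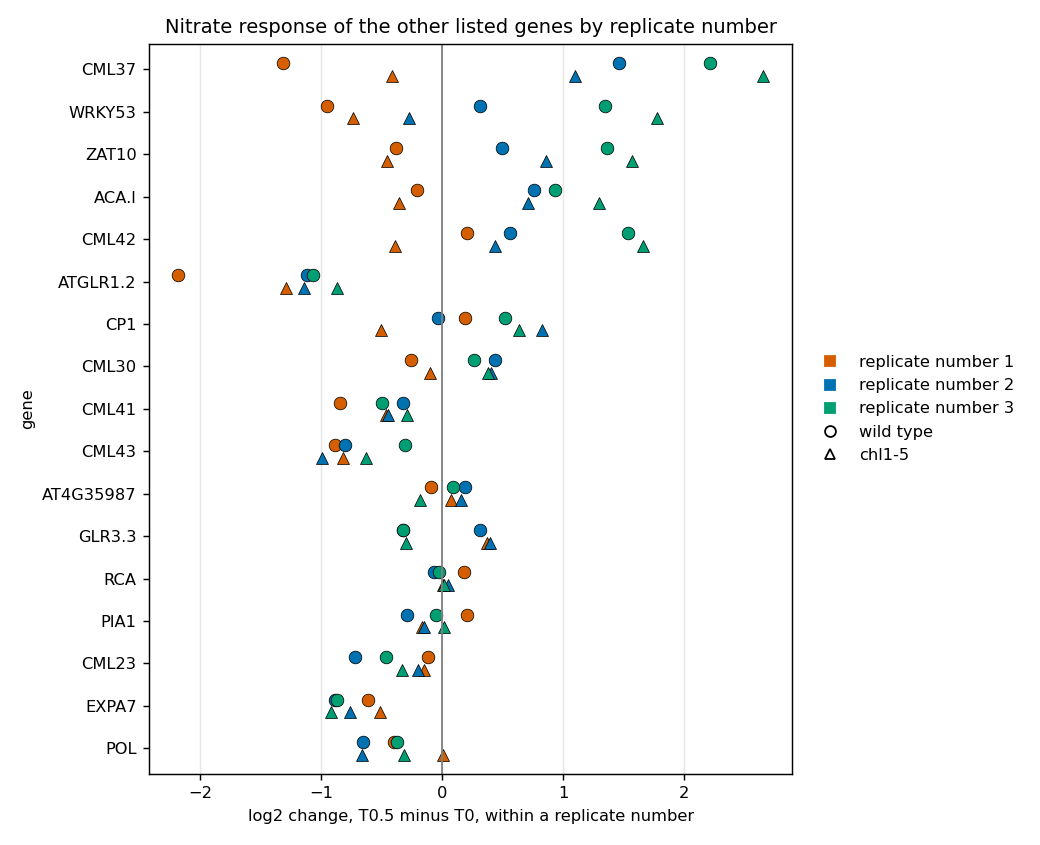
Log2 change from T0 to T0.5 of the other listed genes within each replicate number (colour) in wild type (circles) and chl1-5 (triangles), ordered by how much larger the change was in numbers 2 and 3 than in number 1. CML37, WRKY53, ZAT10 and ACA.l have both points of number 1 left of 0, and ATGLR1.2 has all points left of -0.8.

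The genotypes were then compared, which asks whether these genes depend on CHL1. For none of the 5 did limma find a difference between the responses of chl1-5 and wild type, and 0.035% of the 14291 probe sets passed (5 in all). The differences (chl1-5 minus wild type, log2) were -0.13 for CML38 (95% interval -2.07 to 1.81), 0.47 for CML39 (-1.31 to 2.24) and -0.06 for AT1G21550 (-1.55 to 1.44). Those of the enzymes were -0.06 for AT1G21590 (-0.54 to 0.43) and -0.22 for AT4G32950 (-1.21 to 0.77), each with an adjusted p of 1.00. The unadjusted p of the 5 genes lay between 0.577 and 0.937.

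These intervals come from the fit without the replicate number, and they limit what that fit can show. For AT1G21590 a T0.5 over T0 ratio in chl1-5 between 0.689 and 1.34 times that of wild type lies within the interval. As this gene falls, the lower end stands for a stronger fall in chl1-5 and the upper end for a weaker fall. For AT4G32950 the same range is 0.432 to 1.70 times. For CML38 it is 0.239 to 3.51 times and for CML39 0.404 to 4.73 times, and the spread between experiments is part of that error. With the replicate number as a block, the SE of the difference fell from 0.69 to 0.36 for AT1G21550 and from 0.89 to 0.71 for CML38. For CML39 it fell from 0.82 to 0.61, for AT4G32950 from 0.45 to 0.36 and for AT1G21590 from 0.22 to 0.20. No member passed in that fit either. The values therefore do not show that the genotypes responded alike.

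Before nitrate no member differed between genotypes by limma (adjusted p of 1.00 for each), and 0.028% of probe sets passed. CML39 was the 1 member of 5 whose arrays did not overlap, at 170.7 to 220.5 in chl1-5 against 249.4 to 334.3 in wild type, and 5.19% of probe sets tested had no such overlap. It was lower in chl1-5 in all 3 experiments, with log2 differences of -0.18, -0.90 and -0.55 in replicates 1 to 3. The mean difference was -0.54 (SE 0.58, 95% interval -1.80 to 0.71, unadjusted p = 0.366). That SE is shared with the T0.5 arrays, among which replicate 1 stands apart. Fitted on the T0 arrays alone, the difference had an SE of 0.17, an interval of -0.93 to -0.15 and an unadjusted p of 0.0124 by limma, with an adjusted p of 1.00. An exact two-sided permutation test gave p = 0.1, the smallest that 3 arrays against 3 can give. That value follows from the lack of overlap and adds nothing to it. AT4G32950 was higher in chl1-5 by 0.33 on average (interval -0.37 to 1.03, unadjusted p = 0.328), with overlapping arrays. The other 3 genes differed by 0.01 to 0.05.

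At T0.5 no member differed either (adjusted p of 1.00 for each, unadjusted p from 0.748 to 0.985), and 0.224% of probe sets passed. The arrays of the genotypes overlapped for all 5 genes, and 6.46% of probe sets had no overlap. The differences ran from -0.12 for CML38 to 0.11 for AT4G32950, and for CML39, which was set apart at T0, the arrays of replicates 2 and 3 came within 0.03 of each other on the log2 scale.

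**Figure D5:**
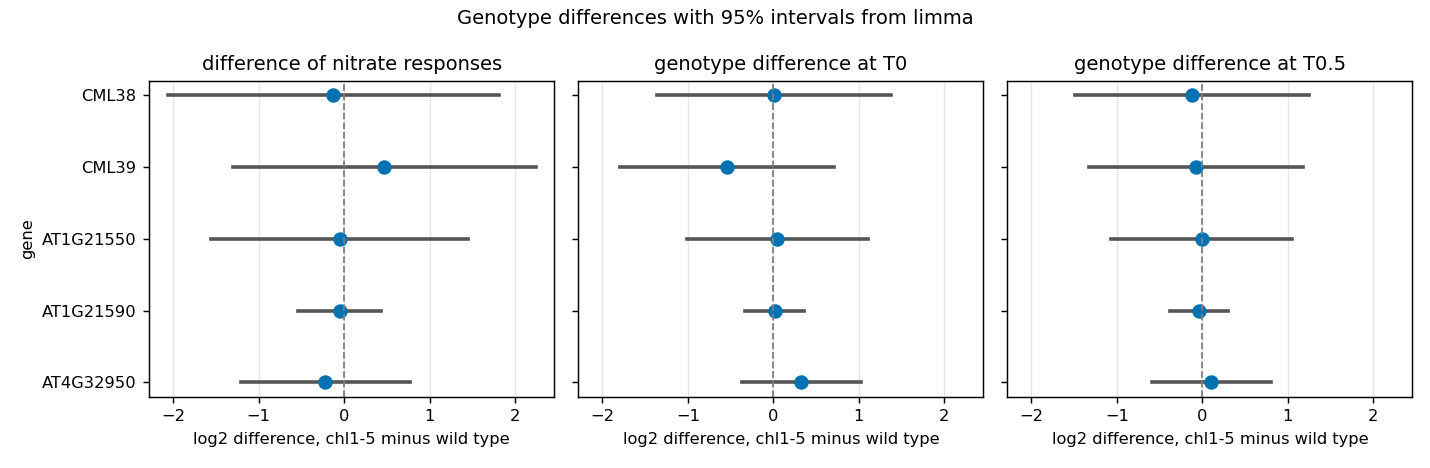
Log2 difference of chl1-5 minus wild type (points) with 95% intervals (lines) from limma over all 12 arrays for the response to nitrate, at T0 and at T0.5. All 15 intervals include 0, and those of AT1G21590 are the narrowest.

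Genes with the most similar profile were sought over the 12 arrays among 7632 named loci tested, by Pearson's r of log2 signals. For CML38 these were AT4G29780 (r = 0.99), AT5G40540 (0.98) and AT1G14480 (0.98), and AT5G40540 was also second for CML39 (0.95) after AT2G20142 (0.95). AT2G20142 had the same dependence on the experiment as CML39, at -0.38 and -0.70 in replicate 1 of wild type and chl1-5, and 1.71 to 2.52 in the others. AT1G21590 was most like AT1G61590 (0.99), and AT1G21550 most like AT2G34610 (0.97). For AT4G32950 the closest were AT4G09620 (0.97), the phosphoglycerate mutase gene PGM (0.97) and BAT1, an acyltransferase gene of brassinosteroid metabolism (0.97). These r values describe 12 arrays that fall into T0 and T0.5 sets and share experiments.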

How the data were processed

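Total RNA of 12 root samples was hybridised to Affymetrix ATH1 arrays. The deposited values are intensities on a linear scale, 1 signal per probe set, made by the authors with MAS5 and already scaled, per the submitters' processing notes and the values (version not given in the sources used here). No array was a copy of another. The number of arrays limits the precision.

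Control probe sets (64 of 22810) were left out. Names came from the platform annotation, joined on gene numbers with the gene table of TAIR10.1. Of 22746 probe sets, 13436 matched 1 locus, 503 had several genes and 8730 were not listed. Family lists matched symbols and synonyms, and the planned list of kinases with an adenine nucleotide alpha hydrolase-like domain matched no locus.

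Values under 0.1 were set to 0.1 before taking log2. A probe set was tested when it reached the 40th percentile of the array on at least 3 arrays, which kept 14291 and all 5 members. The 4 group means were fitted in one limma model (limma 3.58.1, R 4.3.3, eBayes with trend), with two-sided tests and Benjamini-Hochberg adjustment over all probe sets at 0.05. The fit was tested on simulated data with independent noise on each array. Those data lack the pairing by replicate number described below, so the simulation cannot show how the fit handles it. Members and lists were chosen with earlier results of these data known. The naming rule took the 5 members, the tested listed genes, 2 neighbours on each side and the 3 most similar loci.

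The titles of the samples give the replicate numbers, and the labels call each replicate a single independent experiment. The numbers pair the arrays: same-numbered arrays of different groups deviated together in all 18 pairs (r from 0.21 to 0.77 across probe sets), and others did not (r from -0.63 to -0.01). Deviations from a group mean cancel out within the group, so the negative values follow in part from the positive ones. Alternatives were another floor or pseudocount, no filter, median scaling, quantile normalization, no trend, the replicate number as a fixed or random block, fewer groups in the fit, and arrays or replicate numbers left out.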

Additional observations from a re-analysis of the deposited data

How the results depend on the processing

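Over the alternatives, none of the 15 tested genotype differences of the 5 genes passed (355 values, lowest adjusted p of 0.998), with or without the replicate block, and 48 of the 355 had the opposite sign, as estimates near 0 do. The 10 changes from T0 to T0.5 kept their sign in all 240 values. For example, CML38 in wild type lay between 1.64 and 2.85, CML39 between 0.53 and 1.59, and AT4G32950 between 4.24 and 5.05. Many of the 240 values could not move. Dropping the filter or the trend, adding a replicate block or leaving out arrays of the other genotype does not alter a mean change. The genes were also picked largely by this change. The change of AT1G21590 in wild type was -1.50 under median scaling, more than 1 SD of its paired changes away, and that of AT1G21550 in wild type was -2.41 without wild type T0 replicate 3.

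Counts of probe sets that passed moved more. In wild type 797 passed the nitrate response, 1690 with the replicate block, 1499 with a random block, and 177 to 927 without single arrays or replicate numbers. In chl1-5 it was 552, then 1415 with the replicate block, 1173 with a random block, 336 with the arrays of that genotype alone, and 74 to 854 without arrays. The difference of responses called 5, then 17 with the replicate block, 8 with a random block, 3 without the trend and 0 to 4 without arrays. The genotype difference at T0 called 4, then 2 with the arrays of T0 alone and 0 to 4 without arrays, and at T0.5 it called 32, then 60 with the replicate block, 52 with a random block and 2 to 33 without arrays. Of the listed genes 2 were called in each response. In wild type it was 4 with the replicate block, 3 with a random block and 0 to 2 without arrays, and in chl1-5 it was 3 with either block, 1 without the filter, 1 with the arrays of that genotype alone and 0 to 3 without arrays. The causes were not tested, beyond fewer arrays in the fits that leave some out. Among the listed genes and neighbours, the calls that changed with the replicate block were those of CML43 (both genotypes), POL and AT4G32960 (wild type) and AT1G76700 (chl1-5). With a random block those of POL and of CML43 in chl1-5 changed. Dim signals at T0.5 limit AT1G21550 and ATGLR1.2, and in chl1-5 also CML41. CML37 was dim at T0 in chl1-5.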
